A study of Mus musculus with 6 samples.

Results

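Transcripts of 7 cathepsins (Ctsb, Ctsd, Ctsh, Ctsk, Ctsl, Ctss and Ctsz) and 3 cystatins (Cst3, Cst6 and Cstb) were followed in the mouse aortic valve, from the neonatal to the adult animal. The 10 genes were taken by symbol from 46983 genes with a deposited value. Valves came from wild-type C57BL/6J mice at postnatal day 2 (PND2) or at 4 months, and carried no transgene or treatment. Each age had 3 RNA-seq libraries, and each library pooled the valves of 5 to 6 animals, so a value is the mean of a pool and not of a single mouse. The measure is RPKM, the reads of a gene scaled by its exonic length and by the library total, which allows levels of different genes to be set side by side within a library.

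Cathepsins are proteases of the endosome and lysosome. Most are papain-like cysteine proteases (Ctsb, Ctsh, Ctsk, Ctsl, Ctss and Ctsz), while Ctsd is an aspartic protease. They are made as inactive precursors, carried to the lysosome largely by mannose 6-phosphate receptors, and there degrade proteins delivered by endocytosis and autophagy. Some are also released and can cut elastin and collagen, the fibres that bear the load of a valve leaflet. Cystatins block papain-like cysteine cathepsins by filling the active-site cleft, and do not inhibit Ctsd. Cst3 (cystatin C) and Cst6 (cystatin E/M) are secreted, whereas Cstb (stefin B) stays in the cytosol.

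Between PND2 and 4 months 7 of the 10 genes rose (Ctsb, Ctsh, Ctss, Ctsz, Ctsd, Cst3 and Cst6), 1 fell (Ctsk) and 2 did not pass the test (Ctsl and Cstb). A gene is said to rise or fall where its limma p, adjusted by the Benjamini-Hochberg method over all 25903 genes tested, was under 0.05. By that rule 14.7% of all genes tested rose and 21.1% fell, and among genes with a mean of at least 25 RPKM, as all but Cst6 of the 10 have, 48.7% were called in either direction. The median log2 fold change of the 10 genes was 0.80, against -0.14 over all genes tested. A per-gene test that lets the variance differ between the ages, the kind the study used, was also run. At the same limit of 0.05 it called 3 of the 10 higher (Ctsb, Ctsh and Cst3) and 0 lower. At that limit the calls of Ctss, Ctsz, Ctsd, Cst6 and Ctsk thus rest on limma's pooled estimate of spread. Their adjusted p-values in the per-gene test were 0.0538 to 0.0585, and 0.172 for Cst6. The study applied an FDR limit of 0.1 for its count of genes, and of 0.05 with a fold change over 2 for functional annotation. All 10 passed the minimum of 0.1 RPKM in 3 libraries. The ranges of the 2 ages did not overlap for 9 of the 10, which was also so for 50.0% of all genes tested (20.0% higher and 29.9% lower at 4 months). In whole tissue, fewer cells of a type and less RNA per cell cannot be told apart.

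Ctsb (ENSMUSG00000021939, chr14:63122462-63145919 of mm10, plus strand) had the largest rise of the 7 cathepsins. It is a cysteine protease that cuts inside polypeptides and also removes dipeptides from their carboxyl end. Its level was 151, 166 and 183 RPKM in the PND2 libraries and 385, 345 and 377 RPKM at 4 months. Every adult library lay above every neonatal library. The mean went from 167 ± 15.8 to 369 ± 21.1 RPKM (SD, n = 3 each), 2.22-fold higher (log2 fold change 1.15, SE 0.11, 95% interval 0.90 to 1.40, limma adjusted p = 0.000357).

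Ctsh, an aminopeptidase (ENSMUSG00000032359, chr9:90054152-90076089, plus strand), was at 33.8, 30.0 and 35.8 RPKM at PND2 and at 70.1, 56.5 and 67.2 RPKM at 4 months. Ctsz, a carboxypeptidase also called cathepsin X (ENSMUSG00000016256, chr2:174427493-174439039, minus strand), was at 102, 119 and 124 RPKM at PND2 and at 178, 152 and 168 RPKM at 4 months. Neither gene overlapped between the ages, but in proportion to its level the gap of Ctsz was the narrower. Ctsh rose by 1.95-fold, a log2 fold change of 0.96 (SE 0.12, limma adjusted p = 0.00114). The rise of Ctsz was 1.44-fold, a log2 fold change of 0.53 (SE 0.11, limma adjusted p = 0.00969), and it remained past the threshold with any 1 library left out, with an adjusted p of at most 0.0396.

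Ctsd, the main aspartic protease of the lysosome (ENSMUSG00000007891, chr7:142371148-142388038, minus strand), gave 349, 372 and 420.2 RPKM at PND2 and 597, 582 and 622 RPKM at 4 months. All 3 adult libraries were above all 3 neonatal ones, and the adult libraries were closer together than for any other of the 10 genes, with a coefficient of variation of 3.38%. Its mean rose 1.58-fold, from 380.3 ± 36.3 to 600.2 ± 20.3 RPKM (log2 fold change 0.66, SE 0.11, limma adjusted p = 0.00390).

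Ctsk and Ctss lie beside each other on chromosome 3, on the same strand and with 17423 bases between them, and they moved in opposite directions. Ctsk, the collagen- and elastin-degrading protease best known from osteoclasts (ENSMUSG00000028111, chr3:95499256-95509362), was at 90.7, 93.7 and 85.5 RPKM at PND2 and at 47.5, 48.9 and 59.1 RPKM at 4 months. Ctss, an elastin-degrading protease of antigen-presenting cells that also trims the invariant chain of MHC class II (ENSMUSG00000038642, chr3:95526786-95556403), was at 54.0, 40.0 and 48.3 RPKM at PND2 and at 96.8, 89.3 and 85.2 RPKM at 4 months. Neither gene overlapped between the ages. Ctsk fell 1.73-fold, with a log2 fold change of -0.80 (SE 0.11, 95% interval -1.05 to -0.55, limma adjusted p = 0.00168). Ctss rose 1.91-fold, with a log2 fold change of 0.94 (SE 0.13, 95% interval 0.64 to 1.23, limma adjusted p = 0.00162). Within a library, the ratio of Ctss to Ctsk was 0.596, 0.427 and 0.565 at PND2 and 2.04, 1.82 and 1.44 at 4 months, so the more abundant transcript of the neighbours changed in all 3 adult libraries.

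The promoter windows of these neighbours are shown because the genes adjoin and yet diverge with age. Each runs from 250 bases before to 50 bases after the RefSeq start (GRCm38.p6), 5′ to 3′ on the plus strand, and capitals mark GAGGAA on either strand, the core letters bound by PU.1, a factor of macrophages and osteoclasts, and GGGCGG on either strand, the GC box.
Ctsk, chr3:95498960-95499259: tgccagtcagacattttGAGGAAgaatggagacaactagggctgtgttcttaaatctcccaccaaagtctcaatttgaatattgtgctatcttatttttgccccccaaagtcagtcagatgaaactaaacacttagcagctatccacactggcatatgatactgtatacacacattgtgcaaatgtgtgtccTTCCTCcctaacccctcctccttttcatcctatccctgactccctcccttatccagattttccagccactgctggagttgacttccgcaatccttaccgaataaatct
Ctss, chr3:95526536-95526835: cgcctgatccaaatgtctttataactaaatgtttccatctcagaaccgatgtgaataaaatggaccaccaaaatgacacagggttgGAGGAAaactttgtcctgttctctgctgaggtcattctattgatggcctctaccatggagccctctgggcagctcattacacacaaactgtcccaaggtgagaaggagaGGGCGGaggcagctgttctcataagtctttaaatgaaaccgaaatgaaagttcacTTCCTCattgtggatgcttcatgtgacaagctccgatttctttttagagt
Both windows held GAGGAA at 2 places, at -233 and -58 from the start of Ctsk and at -164 and 1 from that of Ctss. These letters stood in 28.3% of the 32851 windows of all genes. GGGCGG stood at -55 of Ctss and not in the window of Ctsk, and in 35.7% of all windows. The GC content was 43.7% for Ctsk and 44.0% for Ctss, with a median of 52.7% over all windows. These are matches of letters, with no measure of binding in the data.

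Ctsl, a broad endoprotease of the lysosome (ENSMUSG00000021477, chr13:64363214-64370306, minus strand), was at 557, 417 and 415 RPKM at PND2 and at 393, 336 and 343 RPKM at 4 months. The highest adult library lay under the lowest neonatal library, by a margin small beside the spread of the neonatal values. The mean was 463 ± 81.4 RPKM at PND2 and 358 ± 31.1 RPKM at 4 months. Its log2 fold change of -0.36 (SE 0.15, 95% interval -0.71 to -0.02) did not pass the adjustment over all genes (limma adjusted p = 0.0950). With libraries scaled to equal medians the difference was -0.24.

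**Figure D1:**
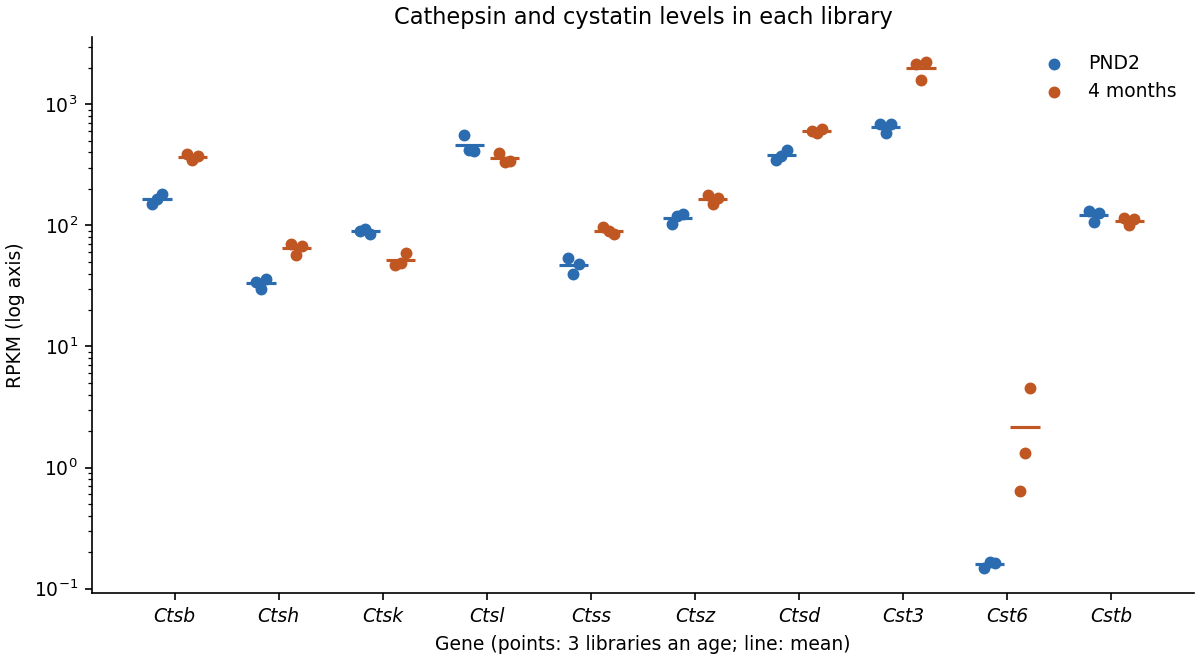
RPKM of the 10 genes (log axis) in each of 3 PND2 and 3 4-month libraries; points are libraries and lines are the mean of an age. Cst3 is the most abundant at both ages, Ctsk and Ctsl sit lower at 4 months, and the adult values of Cst6 spread from 0.644 to 4.56 RPKM.

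Among the inhibitors, the 2 secreted cystatins rose and the cytosolic one did not pass the test. Cst3, the most abundant extracellular inhibitor of cysteine cathepsins (ENSMUSG00000027447, chr2:148871722-148875692, minus strand), was at 684, 578 and 691 RPKM at PND2 and at 2150, 1574 and 2234 RPKM at 4 months. The lowest adult library was still above the highest neonatal library by more than the spread within either age. The mean went from 651 ± 63.1 to 1986 ± 359 RPKM, 3.05-fold higher, with a log2 fold change of 1.60 (SE 0.18, 95% interval 1.18 to 2.01, limma adjusted p = 0.000718).

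Cst6, a secreted inhibitor best known from skin that also blocks legumain (ENSMUSG00000024846, chr19:5344705-5349574, minus strand), was rare at both ages. It stood at 0.149, 0.166 and 0.164 RPKM at PND2, from 23, 20 and 19 reads, and at 0.644, 1.33 and 4.56 RPKM at 4 months, from 95, 125 and 522 reads. The ages did not overlap, but the adult libraries differed widely, with a coefficient of variation of 96.1%, and replicate 3 was the highest. The log2 fold change of 2.71 (SE 0.63, 95% interval 1.23 to 4.20, limma adjusted p = 0.0146) was the largest of the 10 genes and the least precise. Without adult replicate 3 it was 1.99, and with 1 RPKM added before the logarithm in place of 0.1 it was 1.26.

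The exons of Cst6 showed where its reads lay. The exon of 126 bases at chr19:5348397-5348522 was at 0.814, 3.12 and 0.542 RPKM at PND2 and at 7.22, 13.3 and 48.5 RPKM at 4 months. The exon of 480 bases at chr19:5349095-5349574 was at 0.962, 0.478 and 0.854 RPKM at PND2 and at 2.398, 4.20 and 16.7 RPKM at 4 months. The remaining exon, of 3345 bases at chr19:5344705-5348049, makes up 84.7% of the exonic length that the RPKM of the gene is divided by. That long exon held 1, 1 and 5 reads at PND2 and 18, 37 and 113 reads at 4 months, at most 1.17 RPKM. The gene value of Cst6 is therefore far below the level of its other exons.

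Cstb (ENSMUSG00000005054, chr10:78425670-78427619, plus strand) was at 132, 106 and 127 RPKM at PND2 and at 115, 99.98 and 112 RPKM at 4 months. The ages overlapped. Its log2 fold change was -0.16 (SE 0.11, 95% interval -0.42 to 0.11, limma adjusted p = 0.328), an interval that leaves room for a small fall and a smaller rise.

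**Figure D2:**
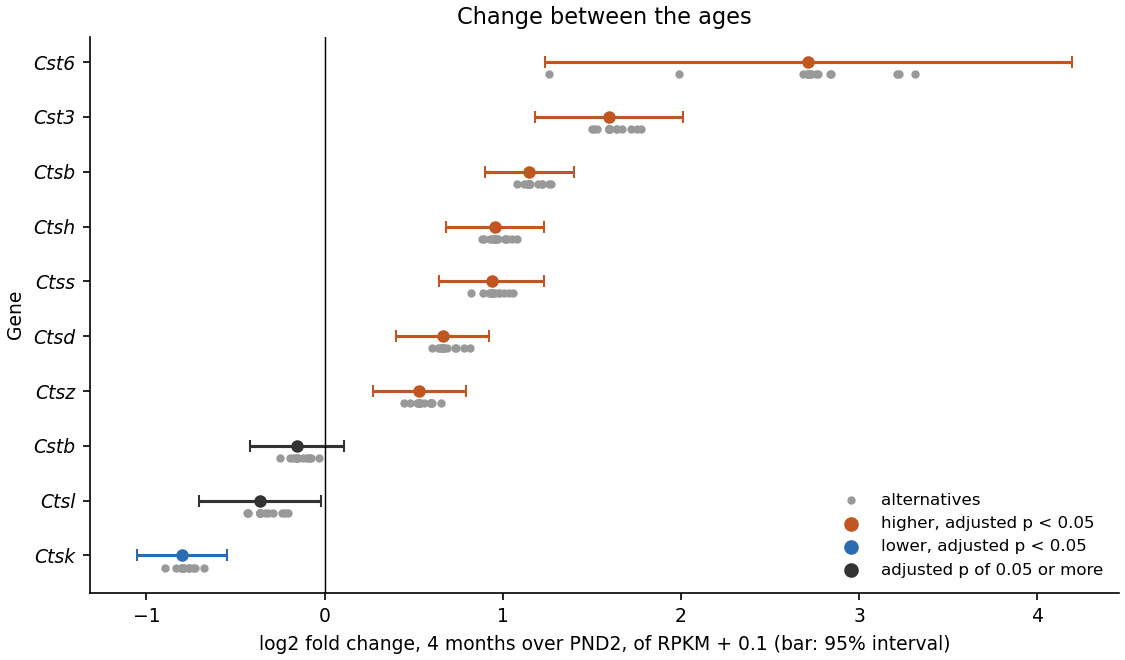
Log2 fold change (4 months over PND2, of RPKM + 0.1) of the 10 genes, with 95% intervals from limma as bars; grey points are the values with a library left out or under another setting. Cst6 has the widest interval, 1.23 to 4.20, and Ctsk is the only one of the 10 called lower.

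The order of the levels changed with age. At PND2 it ran from Cst3 through Ctsl, Ctsd, Ctsb, Cstb, Ctsz, Ctsk, Ctss and Ctsh to Cst6, and neighbours overlapped between Ctsl and Ctsd and between Cstb and Ctsz. At 4 months it ran from Cst3 through Ctsd, Ctsb, Ctsl, Ctsz, Cstb, Ctss, Ctsh and Ctsk to Cst6, and neighbours overlapped between Ctsb and Ctsl and between Ctsh and Ctsk. By mean level Ctsl went from the most to the third most abundant cathepsin, and Ctsk from the fifth to the least abundant. The order of genes depends on the exonic length that the reads are divided by, which is long for Ctsh (4499 bases, many of them in alternative exons) and for Ctsb (4739 bases). By the median RPKM of a gene's exons, a source of values chosen here after the gene values were seen, Ctsh stood above Ctss at PND2 (79.4 to 103 against 42.1 to 53.8 RPKM). At 4 months by that measure Ctsh was at 172 to 212 RPKM and Ctsz at 158 to 187 RPKM, while Ctsk was still the least abundant cathepsin.

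The summed RPKM of the 7 cathepsins was 1295 ± 52.1 at PND2 and 1699.8 ± 82.0 at 4 months. Ctsl held 35.7% ± 5.28 of that sum at PND2 and 21.0% ± 1.16 at 4 months. Ctsb, the cathepsin with the largest gain in share, went from 12.9% ± 1.40 to 21.7% ± 0.229. Ctsd took 29.4% ± 3.03 of the sum at PND2 and 35.3% ± 1.36 at 4 months. The share of Ctsk went from 6.96% ± 0.549 to 3.05% ± 0.373 (SD, n = 3 throughout). Of the 7 shares that of Ctsz was the only one that overlapped between the ages, at 8.90% ± 1.10 and 9.76% ± 0.335. With median exon values the share of Ctsh was 4.37% and 6.54%, in place of 2.56% and 3.79%, and that of Ctsb was 18.6% and 29.8%. On gene RPKM Ctsb reached 0.271 to 0.441 of the level of Ctsl in the neonatal libraries and 0.979 to 1.10 of it in the adult ones.

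**Figure D3:**
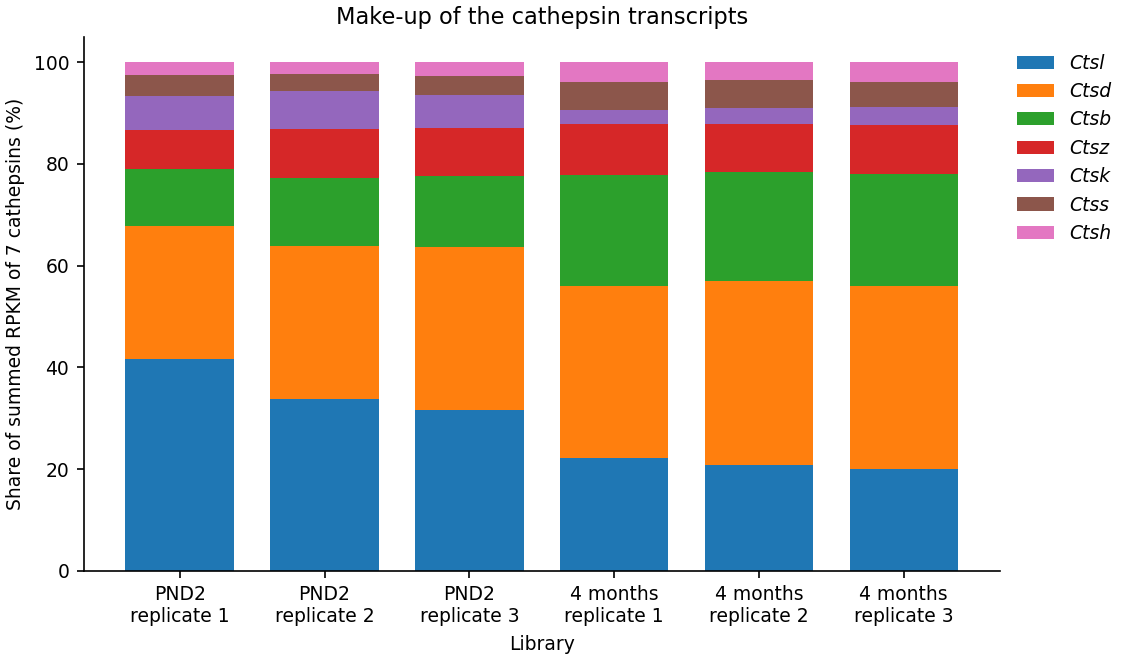
Share (%) of each cathepsin in the summed RPKM of the 7 cathepsins, 1 stacked bar for each library. Ctsl holds 31.6 to 41.6% in the 3 PND2 libraries and 19.9 to 22.2% in the 3 libraries at 4 months, where Ctsb holds 21.5 to 21.9%.

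Inhibitor and protease transcripts were also set against each other within a library, where scaling plays no part. The ratio of Cst3 to the summed cathepsins was 0.511, 0.467 and 0.527 at PND2 and 1.22, 0.978 and 1.30 at 4 months, so it was higher in every adult library. Against the 6 cysteine cathepsins alone, without the aspartic Ctsd, the mean ratio was 0.712 ± 0.0562 at PND2 and 1.80 ± 0.251 at 4 months. The ratio of Cstb to the same 6 went the other way, from between 0.123 and 0.143 at PND2 to between 0.0973 and 0.102 at 4 months, and did not overlap between the ages either. These are ratios of transcripts, and protein levels and activity were not measured.

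Among exons that passed a minimum level, those of a gene mostly differed in the same direction between the ages. Cst6 had only 2 such exons, and its exon of 3345 bases, the bulk of its exonic length, is not among them. Of 117 exons of the 10 genes with at least 1 RPKM in 3 libraries, 96 were higher in all adult libraries, 14 were lower in all of them and 7 overlapped. Over all exons of the valve transcriptome that passed the same minimum, 42.6% did not overlap, 15.5% being higher and 27.1% lower. Exons listed for alternative transcripts can cover the same bases, so they are not independent. All 10 exons of Ctsb (log2 ratio of mean RPKM 0.93 to 1.23), all 7 of Cst3 (1.56 to 1.69), all 44 of Ctsh (0.80 to 1.17) and all 10 of Ctss (0.73 to 1.07) were higher at 4 months. Every exon of Ctsk was lower, 8 of 8, with log2 ratios of -1.01 to -0.59. For Ctsl, 6 of 8 exons were lower without overlap and the other 2 overlapped, with all log2 ratios between -0.52 and -0.29. The 3 exons of Cstb overlapped between the ages.

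Ctsd had 1 exon out of step with the other 18. That exon, chr7:142371148-142371310, is the end farthest from its start and shares its 163 bases with Ifitm10, a gene on the same strand. It was at 10.4, 21.3 and 28.3 RPKM at PND2 and at 12.5, 11.1 and 16.5 RPKM at 4 months, far under the other exons, which had log2 ratios of 0.58 to 0.72. Other shared stretches were 767 bases of Ctsb with Fdft1 and 10 bases of Ctsz with Nelfcd, both on the opposite strand. The sources used here do not say whether the counting used strand. The 9 exons of Ctsb clear of Fdft1 gave the same range of log2 ratios, 0.93 to 1.23.

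**Figure D4:**
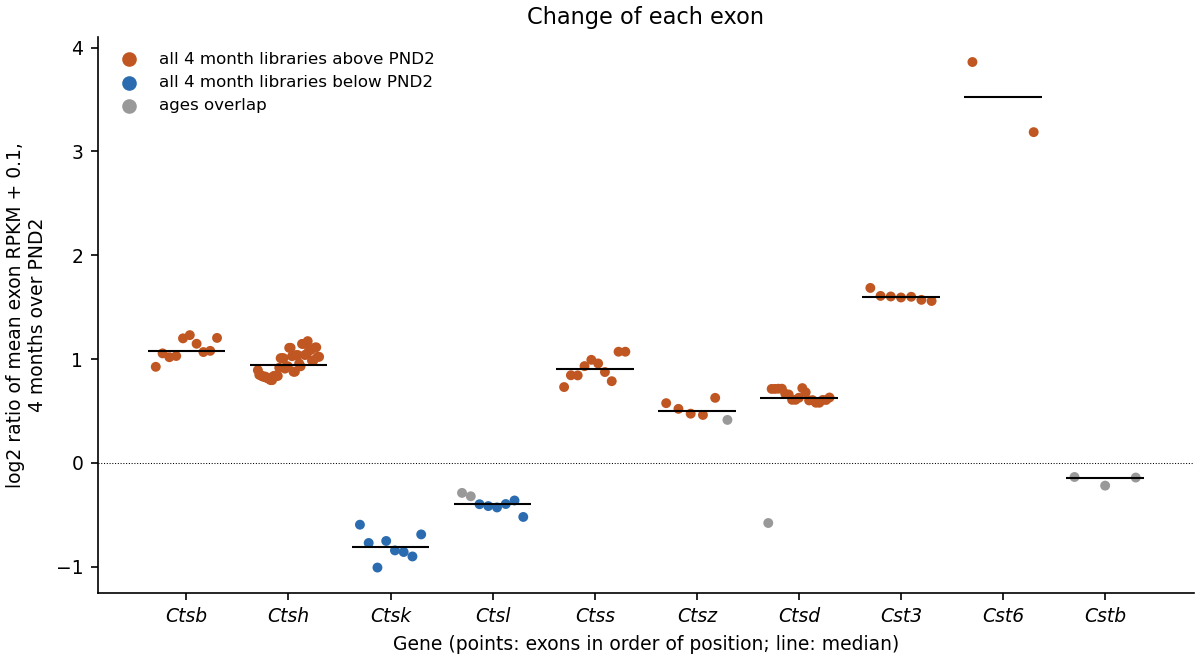
Log2 ratio of mean exon RPKM + 0.1 (4 months over PND2) for the 117 exons of the 10 genes, in order of position; lines are medians, and colour shows whether all adult libraries lie above or below all PND2 libraries. The exons of a gene stay on 1 side of 0, except the exon of Ctsd at -0.58 that lies in Ifitm10.

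RefSeq promoter windows were found for 6 of the 10 genes (Cst3, Ctsz, Ctsk, Ctss, Ctsd and Ctsl). Those of Ctsd and Cst3, the most abundant protease and inhibitor at 4 months, are shown 5′ to 3′ on the minus strand (GRCm38.p6). Capitals mark, on either strand, the GC box GGGCGG, the PU.1 letters GAGGAA and the E-box CACGTG with its extended form TCACGTGA, which is the core of the element bound by TFEB, the activator of lysosomal genes.
Ctsd, chr7:142387778-142388077: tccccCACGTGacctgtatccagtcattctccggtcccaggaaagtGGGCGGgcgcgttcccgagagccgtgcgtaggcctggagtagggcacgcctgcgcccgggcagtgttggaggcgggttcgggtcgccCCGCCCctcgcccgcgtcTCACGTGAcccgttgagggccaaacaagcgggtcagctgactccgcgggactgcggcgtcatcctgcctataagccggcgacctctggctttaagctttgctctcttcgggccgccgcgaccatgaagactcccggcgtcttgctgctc
Cst3, chr2:148875463-148875762: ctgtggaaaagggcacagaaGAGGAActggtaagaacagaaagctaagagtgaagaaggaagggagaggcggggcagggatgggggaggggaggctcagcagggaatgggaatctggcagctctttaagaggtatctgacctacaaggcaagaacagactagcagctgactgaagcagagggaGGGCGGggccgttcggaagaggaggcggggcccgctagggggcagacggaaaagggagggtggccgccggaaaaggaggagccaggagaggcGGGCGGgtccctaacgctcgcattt
The window of Ctsd held CACGTG at -245 and at -98, the latter inside TCACGTGA, which starts at -99. CACGTG stood in 7.15% of all windows, and TCACGTGA in 0.974%. Of the other 5 windows CACGTG was found in that of Ctsl, at -236, where the gene did not pass the test. The window of Cst3 held GGGCGG at -67 and at 26 and GAGGAA at -230. Ctsd had the highest GC content of the 6, at 67.3%, with 33 CpG dinucleotides against a median of 7 over all windows, while Ctsk had 2. CCAAT, found in 37.4% of all windows, was in that of Ctsz at -234. A match of letters is no measure of binding.

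Genes related to the 10 were read from lists of the same families and pathway. Of 16 other cathepsins 6 were tested, and 2 rose. Ctsc, the dipeptidyl peptidase that activates the granule proteases of immune cells, went from 14.9 ± 0.809 to 28.7 ± 4.30 RPKM (log2 fold change 0.93, limma adjusted p = 0.00184). Ctso, a papain-like protease, went from 17.8 ± 2.05 to 23.7 ± 1.29 RPKM (log2 fold change 0.42, limma adjusted p = 0.0272). The placenta-type cathepsins of rodents were near the limit of detection, and 7 of the 16 genes had no read in any library. The median log2 fold change of the 6 was 0.37, against -0.14 over all genes tested. The call of Ctso was lost with 5 of the 6 libraries left out in turn (adjusted p up to 0.0939), which left 1 gene higher, and under the unequal-variance test neither Ctsc nor Ctso passed. Ctsa and Ctsf also passed once libraries were scaled to equal medians, which made 4.

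Of 19 other genes of the cystatin superfamily 12 were tested, of which 2 rose and 8 fell. The falls included 6 stefin A genes that had no read in any adult library: Stfa1, Stfa2, Stfa2l1, BC100530, BC117090 and Gm5483. These 6 reached 0.1 RPKM in neonatal libraries only, so a fall was the only call open to them. Set against the RPKM of 3 reads in each adult library, Stfa1 (9.08 ± 3.19 RPKM at PND2) was at least 36.7-fold lower at 4 months. By the same limit BC100530 was at least 37.0-fold lower, Gm5483 at least 31.5-fold and Stfa2 at least 20.9-fold. Stfa3, of the same family, was at 1.06, 1.51 and 1.74 RPKM at PND2 and at 0.0650, 1.94 and 1.84 RPKM at 4 months, and did not pass the test. Stefin A genes are close copies of each other, so reads may be shared among them and their separate values are uncertain. With any 1 neonatal library left out 2 genes of the superfamily were called lower, in place of 8, because the stefin A genes then no longer reach the minimum in 3 libraries. The other genes called lower were Cst9 and Ahsg. Cst9 went from 35.2 ± 5.07 to 10.6 ± 7.90 RPKM (log2 fold change -1.95, limma adjusted p = 0.0125). Ahsg went from 176 ± 56.0 to 56.3 ± 8.57 RPKM (log2 fold change -1.60, limma adjusted p = 0.00180). Under the unequal-variance test neither passed (adjusted p = 0.167 and 0.0631). Fetub, a fetuin that inhibits metalloproteases rather than cathepsins, rose from 0.165 ± 0.109 to 5.00 ± 1.38 RPKM (log2 fold change 4.33, limma adjusted p = 0.000419). Cst12 reached 0.1 RPKM in adult libraries only, so a rise was the only call open to it. It had no read at PND2 and 5, 5 and 22 reads at 4 months, at least 3.97-fold higher. Without adult replicate 3 that limit was 1.86-fold, and with values floored at 10 reads the gene had a limma adjusted p of 0.411. The median log2 fold change of the 12 was -2.86 as fitted and -2.23 with the genes without reads at their limit. Both medians rest largely on the 7 of the 12 that could be called in 1 direction only.

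The genes that deliver cathepsins to the lysosome moved unequally. Of 11 genes of sorting and activation 6 rose and 1 fell, with a median log2 fold change of 0.38, and 4 to 6 rose with a library left out. Igf2r, the large mannose 6-phosphate receptor that also clears Igf2, fell from 165 ± 16.3 to 39.4 ± 3.46 RPKM (log2 fold change -2.06, limma adjusted p = 4.53e-05). The small mannose 6-phosphate receptor M6pr was at 36.9 ± 2.35 and 40.1 ± 1.85 RPKM and did not pass the test. Lrp1, an endocytic receptor that takes up lysosomal enzymes, rose from 55.7 ± 11.7 to 177 ± 16.1 RPKM (log2 fold change 1.68, limma adjusted p = 0.000401). Nagpa, which uncovers the mannose 6-phosphate tag, rose from 6.00 ± 1.69 to 18.5 ± 2.33 RPKM (log2 fold change 1.64, limma adjusted p = 0.00181). Psap, the precursor of the saposins, rose from 468 ± 19.6 to 818 ± 14.3 RPKM (log2 fold change 0.80, limma adjusted p = 0.00128). Lgmn, the legumain that processes several cathepsins and is blocked by Cst6, was at 140.1 ± 7.69 and 134 ± 7.97 RPKM and did not pass the test.

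Of 33 other lysosomal hydrolases and membrane proteins 14 rose, none fell and 19 did not pass the test, with a median log2 fold change of 0.28, and 10 to 14 rose with a library left out. The 4 with the largest change were Ids, an iduronate sulfatase (log2 fold change 1.35), Hexa, a hexosaminidase subunit (1.17), Arsb, an arylsulfatase (1.08), and Pla2g15, a phospholipase (1.03). Lamp1, the most abundant membrane glycoprotein of the lysosome, was at 317, 314 and 329 RPKM at PND2 and at 559, 534 and 542 RPKM at 4 months, without overlap. Hydrolases that did not pass the test included Glb1 and Neu1, with log2 fold changes of -0.30 and 0.01.

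Of 16 genes of the vacuolar proton pump, which acidifies the lysosome, 2 rose and 3 fell, with a median log2 fold change of 0.03. The accessory subunits Atp6ap1 (log2 fold change 0.81) and Atp6ap2 (0.52) rose, and the subunits Atp6v1d (-0.54) and Atp6v1b2 (-0.51) fell. With libraries scaled to equal medians 6 of the 16 were called higher. Of 6 regulators of lysosomal genes none rose and 2 fell under limma, Tfeb with a log2 fold change of -0.44 (adjusted p = 0.0289) and Mitf with -0.46 (adjusted p = 0.0482). Neither passed once libraries were scaled to equal medians, when Tfeb had an adjusted p of 0.0654 and Mitf of 0.148.

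**Figure D5:**
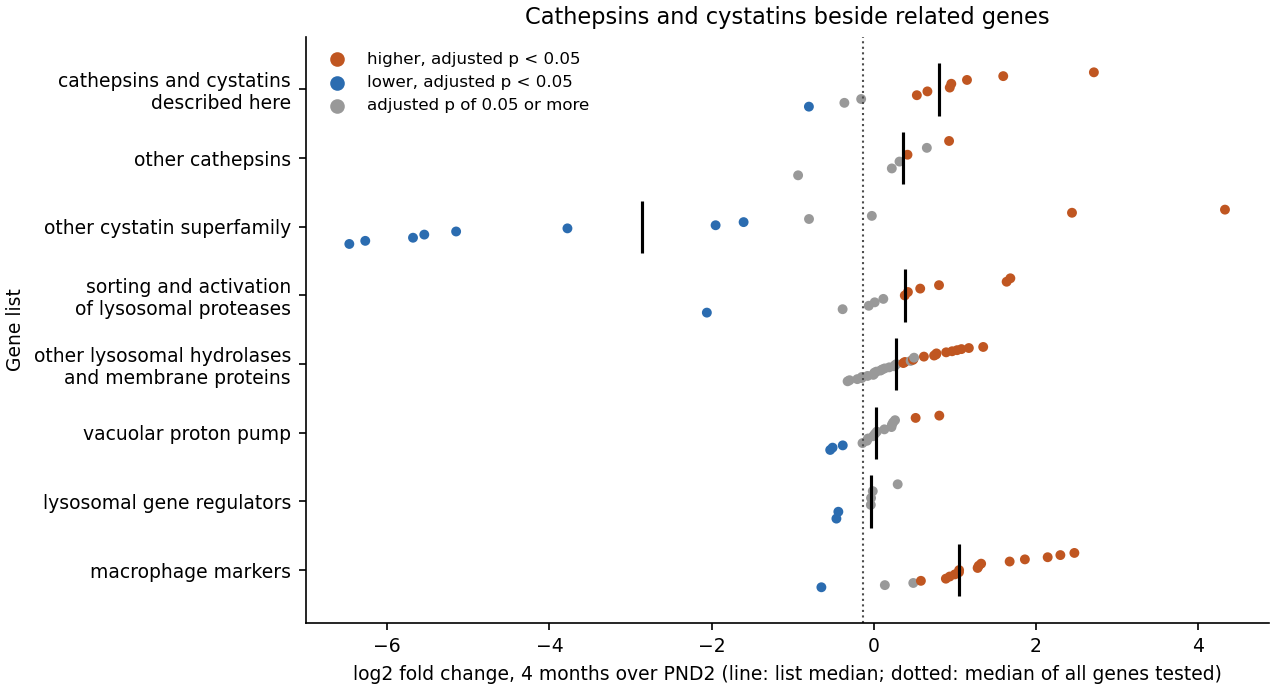
Log2 fold change (4 months over PND2) of the tested genes of 8 lists, 1 point for each gene; black lines are the median of a list and the dotted line is the median of all genes tested, -0.14. The 10 cathepsins and cystatins have a median of 0.80, the other lysosomal hydrolases 0.28 and the proton pump 0.03.

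Markers of macrophages and of antigen presentation, in which Ctss is known to act, were mostly higher at 4 months. Of 17 macrophage markers 14 rose and 1, Cx3cr1, fell, where 14.7% of all genes tested rose. Their summed level was 469 to 520 RPKM at PND2 and 1281 to 1430 RPKM at 4 months. Under the unequal-variance test the calls of Adgre1, C1qc, Itgam, Mertk, Cd163, Tyrobp and Cx3cr1 did not pass (adjusted p = 0.0515 to 0.127). None of the 17 was at 0. Of 9 genes of MHC class II processing 8 rose, and Cd74, the invariant chain that Ctss trims, went from 6.47 ± 1.16 to 525 ± 71.7 RPKM. The median log2 fold change of the 17 was 1.05, beside 0.94 for Ctss. The level of Ctss relative to their sum was 0.0853 to 0.104 at PND2 and 0.0632 to 0.0697 at 4 months. That difference rested on Lyz2, the most abundant of the markers, since without it the ratio was 0.117 to 0.138 and 0.110 to 0.135 and the ages overlapped (a check chosen after the values were seen). The part that macrophages have in the rise of Ctss or the other cathepsins was not tested.

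Osteoclast markers were low in level, and none of those tested was called lower. Of 8 such genes 7 were tested, and 4 rose (Acp5, Mmp9, Tnfrsf11a and Atp6v0d2), while the summed level went from between 4.21 and 5.48 RPKM to between 17.6 and 32.1 RPKM. Under the unequal-variance test none of these 4 passed (adjusted p = 0.0525 to 0.0897). Atp6v0d2 had 13, 0 and 3 reads at PND2, and its call was lost with a library left out (limma adjusted p up to 0.0824). Calcr, Ocstamp, Dcstamp and Oscar were at most 0.458 RPKM in any library. The part of osteoclasts in the level of Ctsk was not tested. Of 8 markers of valve interstitial cells, the fibroblast-like cells of the leaflet, 2 rose and 4 fell, and 3 of those that fell were the fibrillar collagens Col1a1, Col1a2 and Col3a1. The sum of these 8 was 6501 to 7152 RPKM at PND2 and 8033 to 10135 RPKM at 4 months. The higher adult sum rested largely on 1 gene, Dcn, at 1016 to 1123 RPKM at PND2 and 3495 to 4499 RPKM at 4 months. All 7 endothelial markers fell, from a sum of 404 to 557 RPKM to one of 226 to 247 RPKM.

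Transcripts typical of heart muscle and fat were also present in the libraries. The 8 cardiomyocyte markers summed to 13171 to 15915 RPKM at PND2 and 4551 to 8365 RPKM at 4 months, and 4 of them fell. The 8 adipocyte markers were all called higher. Of these, Plin1, Cidec, Lep and Cfd reached 0.1 RPKM in adult libraries only, so a rise was the only call open to them. The call of Acvr1c was lost with a library left out (limma adjusted p up to 0.0736). The sum of the 8 went from 28.7 to 31.2 RPKM at PND2 to 386 to 1385 RPKM at 4 months, and adult replicate 2 was the highest. With that library left out 7 of the 10 cathepsins and cystatins were still called higher and 1 lower, as with any other library left out. The part of heart muscle and fat in the values was not tested. Library totals were 23810507 to 38994657, between 5.44 and 9.60% of gene reads were mitochondrial, and Pearson's correlation across genes was 0.961 to 0.970 within an age and 0.911 to 0.922 between ages.

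Among 14215 genes with a mean of at least 5 RPKM, those whose pattern over the 6 libraries was most like that of Cst6 were Lrrc8a (Pearson's r = 0.993), Dnajb1 (0.991) and 1500015O10Rik (0.989), on log2(RPKM + 0.1). Pearson's r does not depend on the size of a change, and these are the highest values among many genes. Lrrc8a was at 23.1, 22.9 and 22.9 RPKM at PND2 and at 25.5, 29.2 and 34.4 RPKM at 4 months, a far smaller change than that of Cst6. Dnajb1, a heat shock co-chaperone, was at 31.3, 31.2 and 30.8 RPKM at PND2 and at 80.1, 109.8 and 205 RPKM at 4 months. Like Cst6, all 3 genes were highest in adult replicate 3. Both genes of a pair were measured in the same 6 libraries, with the same depths and ages, and the likeness is a description.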

How the data were processed

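Aortic valve RNA of 3 PND2 and 3 4-month pools was sequenced from stranded paired-end libraries. After trimming, the authors used TopHat2 2.1.0 for alignment (mm10) and easyRNASeq for counting on Ensembl features, and deposited RPKM values for genes and exons. Whether strand was used in counting is not given in the sources used here. All 46983 genes were read. RPKM multiplied by exonic length and library total gave whole reads (within 0.01) for 100% of gene values. The smallest step, 1 read per kb of exon, was 0.0256 to 0.0420 RPKM.

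On log2(RPKM + 0.1), the ages were compared by limma (version 3.58.1, R 4.3.3; eBayes with trend) for the 25903 genes with at least 0.1 RPKM in 3 libraries, with 2-sided tests and Benjamini-Hochberg adjustment over all of them. Adding 0.1 understates the change of rare genes. Errors are SD over 3 pools. Genes without reads in an age were placed at 3 reads per library, which covers counting error only. The 10 genes and all lists were chosen with earlier results of these data known. Beside the 10 genes, up to 4 genes of a list with the largest called change, those overlapping one of the 10, and the 3 genes most like Cst6 were to be named; others were chosen after their values were seen. The 5 motifs were searched on both strands in RefSeq windows, and TCACGTGA contains CACGTG. Alternatives were other pseudocounts, filters, scalings and tests, voom on the recovered reads, a replicate block and each library left out. The steps were tested on simulated data. Tables and figures used data.table (version 1.17.8), Python 3.11.15, numpy 2.4.6, pandas 2.3.3 and matplotlib 3.10.9.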

Additional observations from a re-analysis of the deposited data

How the results depend on the processing

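No alternative reversed the direction of any of the 10 genes, and the log2 fold changes kept their side of the threshold in 60 of 60 values with a library left out and in 114 of 119 under other settings. The exceptions came from the per-gene unequal-variance test, the study's kind of test, which called 3 of the 10 genes higher (Ctsb, Ctsh and Cst3) and 0 lower, in place of 7 and 1. Unadjusted it had 6 higher and 1 lower at p under 0.05, and voom on the recovered reads called 7 and 1. Ctsk, Ctss, Ctsz, Ctsd and Cst6 had adjusted p-values of 0.0538, 0.0569, 0.0585, 0.0538 and 0.172 there. Over all genes that test called 3408, against 9273. Cst6 could not be tested with a minimum of 1 RPKM, which left 6 called higher.

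With a library left out, 7 genes were called higher and 1 lower in all 6 cases. Scaling to equal medians moved the median of all genes from -0.14 to -0.02 and the split of calls from 3810 higher and 5463 lower to 4601 and 4129, with the same 7 and 1 of the 10. The labels do not say that equal replicate numbers pair the samples. Deviations of same-numbered libraries correlated at 0.0439, -0.0608 and -0.160, and those of other pairs at -0.176 to 0.233. With so few libraries these values cannot decide whether samples were paired. With the replicate block 7167 genes were called, 7 higher and 1 lower among the 10.

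The ratio of Cst3 to the summed cathepsins moved without Ctsd to 0.712 at PND2 and 1.80 at 4 months, fewer genes being summed, and with median exon values to 0.536 at PND2. With a library left out it was 0.489 to 0.519 at PND2 and 1.10 to 1.26 at 4 months. The count of exons without overlap was 109 to 113. Depth limits the values of Cst6 at PND2, which rest on 19 to 23 reads.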

Other observations

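Markers of other cell types differed in level and direction. Of 7 keratinocyte and epithelial markers, the tissue Cst6 is best known from, 4 were tested, and 1 rose (Cdh1, log2 fold change 1.17) and 1 fell (Krt14, -1.71), and their summed level was 8.09 to 13.6 RPKM at PND2 and 4.13 to 6.67 RPKM at 4 months. Neither of these calls held with every library left out in turn. Of 5 melanocyte markers 2 fell, Pmel (log2 fold change -1.65) and Tyrp1 (-1.36). Of 6 erythroid markers 5 were tested and none passed, although the sum ranged from 750 to 2158 RPKM in the adult libraries.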
